A study of Mus musculus with 64 samples.

Results

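The 10 genes described here encode the transcriptional regulators of cardiac energy metabolism: the coactivators Ppargc1a, Ppargc1b and Perm1, the estrogen-related receptors Esrra, Esrrb and Esrrg, the peroxisome proliferator-activated receptors Ppara, Ppard and Pparg, and the mitochondrial transcription factor Tfam. They were taken from the count and TPM tables by gene symbol, and they are 10 of 39152 named genes. All 10 passed the filter on low counts in each of 27 comparisons. The lowest count of any of them in any of 64 libraries was 40.7, for Pparg.

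Bulk RNA came from 32 C57BL6 mice, each of which gave its right (RV) and left (LV) ventricle. All animals carried floxed Pkp2, the gene of the desmosomal protein plakophilin-2. The WT group (9 animals) were Pkp2 fl/fl littermates without Cre and received vehicle. In the cKO group (4 animals, αMyHC-Cre-ER(T2)/Pkp2 fl/fl) tamoxifen activated a Cre recombinase driven by the α-myosin heavy chain promoter, which removes Pkp2 from adult cardiomyocytes, and these animals also received vehicle. The 3 remaining groups were the same knockout given 1 intravenous dose of AAV9:mPkp2, an adeno-associated virus that carries mouse Pkp2. The dose was 3E13 vector genomes per kg in the AAV_3E13 group (8 animals) and 1E14 in AAV_1E14 (5 animals) and AAV_1E14_2.5wk (6 animals). The labels place the vector 1 week ahead of tamoxifen in AAV_3E13 and AAV_1E14, and 2.5 weeks later than tamoxifen in AAV_1E14_2.5wk, although descriptions of the study differ on the early dose. Hearts of WT and vector-treated animals were collected 51 weeks after induction and those of untreated cKO animals at 4 weeks, so the effect of the knockout cannot be told apart from age in any comparison with that group. A ventricle also holds fibroblasts, endothelial cells and leukocytes, and in bulk tissue fewer cells of a type cannot be told apart from less RNA per cell.

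Heart muscle obtains most of its ATP from mitochondrial oxidation of fatty acids. PGC-1α (Ppargc1a) and PGC-1β (Ppargc1b) do not bind DNA themselves and act by binding nuclear receptors, among them the estrogen-related receptors, which switch on genes of the respiratory chain and the citric acid cycle, and PPARα, which switches on genes of fatty acid uptake and oxidation. Perm1 is a muscle protein induced by this pathway that acts with it, and Tfam is imported into mitochondria, where it packages and transcribes mitochondrial DNA.

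Of the promoters searched for known motifs, 3 held a match, and the 250 bases before the annotated start site of each are printed because these genes stand at 3 steps of the pathway. The build is GRCm39 with GENCODE vM39 start sites, each strand is read 5′ to 3′, and capitals mark the match. Ppargc1a lies on the minus strand (chr5:51711265-51711514) and held a cyclic AMP response element, TGACGTCA, 83 bases before the start. Perm1 lies on the plus strand (chr4:156300075-156300324) and held the core of an estrogen-related receptor element, AAGGTCA, on the opposite strand 143 bases before the start, which reads TGACCTT here. Esrra lies on the minus strand (chr19:6899186-6899435) and held an NRF1 core, GCATGCGC, 25 bases before the start.
Ppargc1a: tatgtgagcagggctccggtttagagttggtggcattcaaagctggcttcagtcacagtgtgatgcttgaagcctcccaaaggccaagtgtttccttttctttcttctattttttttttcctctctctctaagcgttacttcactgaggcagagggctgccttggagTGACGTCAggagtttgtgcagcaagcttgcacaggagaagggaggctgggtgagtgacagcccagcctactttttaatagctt
Perm1: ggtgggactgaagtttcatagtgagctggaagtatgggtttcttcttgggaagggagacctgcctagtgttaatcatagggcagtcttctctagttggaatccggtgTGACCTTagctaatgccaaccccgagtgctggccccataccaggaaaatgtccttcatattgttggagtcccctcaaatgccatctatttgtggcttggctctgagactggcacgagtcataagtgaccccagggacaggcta
Esrra: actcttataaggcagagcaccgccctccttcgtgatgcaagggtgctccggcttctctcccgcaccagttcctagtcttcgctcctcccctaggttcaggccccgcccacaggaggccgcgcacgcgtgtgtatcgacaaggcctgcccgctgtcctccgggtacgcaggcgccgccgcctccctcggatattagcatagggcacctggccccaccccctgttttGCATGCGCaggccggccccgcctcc
Among 21580 promoters of protein-coding genes, from 250 bases before to 50 after the start, these motifs occurred in 2.46%, 4.5% and 3.69% on either strand. The full estrogen-related receptor element TCAAGGTCA (0.477% of promoters, and always a match of the shorter core too), the GABP site CCGGAAGT (4.37%), the E-box CACGTG (7.83%) and a PPAR element of the form AGGTCANAGGTCA (0.0463%) had no match in the windows of the 10 genes. A match is a description of letters in a short window and says nothing of binding.

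Pkp2 itself checked the labels. It stood at 149 ± 20.5 counts per 1e+06 counts used after scaling (CPM, mean ± SD, n = 9) in WT RV and 192 ± 18.8 in WT LV, and at 60.5 ± 28.5 and 68.2 ± 24.3 in cKO (n = 4). Levels in vector-treated ventricles, where the vector's transcripts are counted as Pkp2, averaged between 296 and 2320 CPM. Libraries held 7.96e+06 to 1.46e+07 counts, of which 5.34e+06 to 1.02e+07 were left after the mitochondrially encoded genes were set aside. The library WT_RV_5819 held 661 CPM of atrial markers (median of WT RV 27.2). In 1 animal of 32 the RV library, AAV_1E14_2.5wk_RV_5814, held Xist at 263 CPM and Y-linked genes at 298 CPM, whereas its LV library held Xist at 3064 CPM and no Y-linked counts, so its ventricles do not match. Comparisons within RV were refitted without each of these RV libraries, and comparisons between ventricles without each of these animals. Comparisons within LV were not refitted without the LV libraries of these animals. Values are given where a call changed. Cardiomyocyte markers identified all ventricles as labelled heart muscle, with 10 markers summing to at least 36989 CPM in every library.

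Levels of different genes were compared per transcript length, as TPM (transcripts per 1e+06 transcripts, rescaled without mitochondrially encoded genes), within untreated WT. In WT LV, Perm1 (102 ± 20.2 TPM, mean ± SD, n = 9) and Ppargc1a (95.1 ± 19.4) stood highest, followed by Esrra (66.9 ± 12), Esrrg (55.7 ± 5.85), Ppara (35.9), Ppargc1b (33.4), Tfam (25.4), Esrrb (16.5), Pparg (14.3) and Ppard (13.2). Neighbours in this order differed by more than the larger of their SDs at 3 places only, between Ppargc1a and Esrra, between Esrrg and Ppara, and between Tfam and Esrrb. The order in WT RV was similar, with Ppargc1a (86.8 TPM), Perm1 (80.7) and Esrra (78.9) within 1 SD of each other at the top and Ppard (10.96) last. Among the estrogen-related receptors Esrrb was the least abundant in both ventricles, and Esrra exceeded Esrrg beyond the spread in RV but not in LV. Ppara outranked the other PPARs. In cKO the order changed at its head, where Esrra came first in both ventricles (49.1 ± 16.5 TPM in RV and 45.8 ± 15.02 in LV, n = 4) and Ppargc1a second (31.6 and 36.5), while Esrrb came last (4.62 and 5.51).

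**Figure D1:**
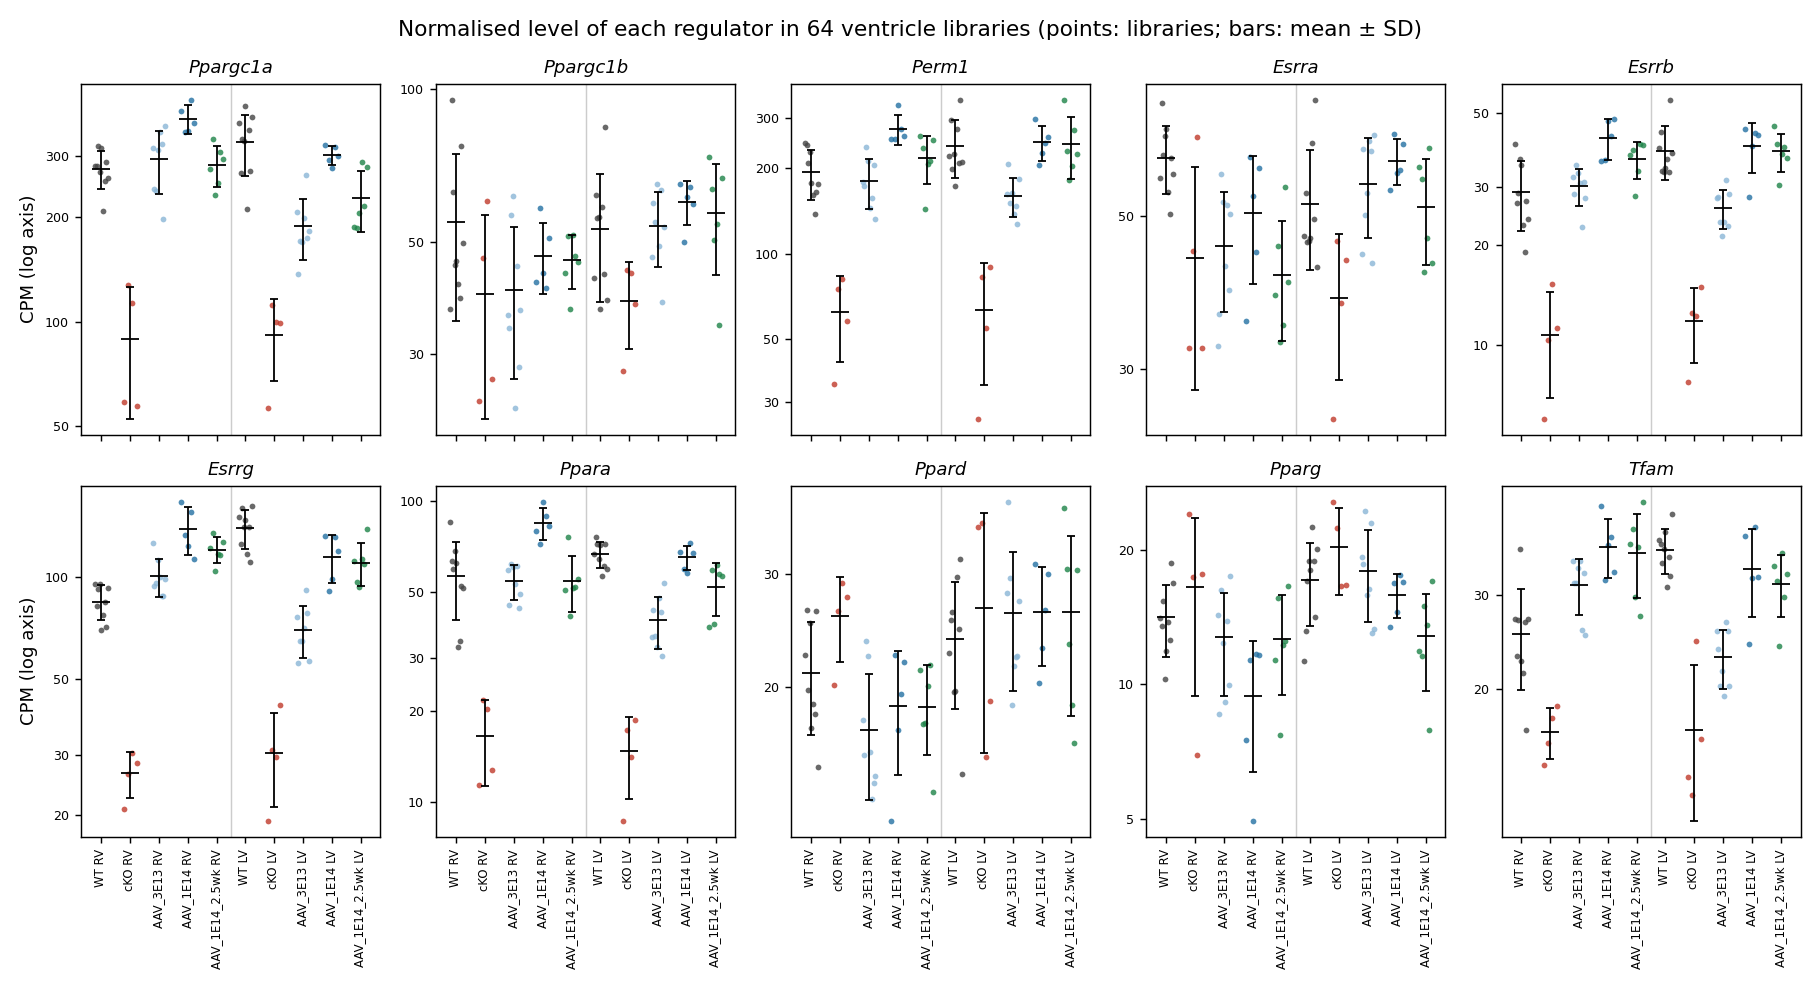
Each panel plots 1 gene, with CPM on a log axis for every library, points for libraries and bars for mean ± SD, RV groups left of the grey line and LV groups right of it. In cKO the points of Ppargc1a, Perm1, Esrrb, Esrrg and Ppara lie below all WT points of the same ventricle, whereas those of Ppargc1b, Ppard and Pparg overlap them.

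In cKO, 7 of the 10 genes were lower than in WT in each ventricle and none was higher (edgeR quasi-likelihood test, adjusted p below 0.05). Across all genes tested, 20.3% were called lower in RV and 23.0% in LV. The median log2 change of the 10 genes was -1.01 in RV and -1.43 in LV, against 0.02 and 0.05 over all genes. The 7 genes were the same in both ventricles, namely Ppargc1a, Perm1, Esrra, Esrrb, Esrrg, Ppara and Tfam. Libraries of cKO and WT did not overlap for 5 of the 10 in RV and 6 in LV, where 22.3% and 24.3% of 15313 genes did not.

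Ppargc1a, the coactivator induced by exercise, cold and fasting, fell in both ventricles. The cKO RV libraries held 58.5, 127, 113 and 57.0 CPM, and WT RV ran from 208 to 322 CPM (median 282). In LV the cKO libraries held 56.5, 112, 99.8 and 99.0 CPM against 211 to 420 CPM in WT (median 338). The cKO libraries all lay below the WT range, and the gene was 3.08-fold lower in RV (log2 -1.62, SE 0.21, adjusted p = 3.15e-05) and 3.64-fold lower in LV (log2 -1.86, SE 0.21, adjusted p = 8.19e-06). Perm1 fell in both ventricles too. Its cKO libraries held 34.8, 75.2, 81.6 and 58.0 CPM in RV and 26.3, 83.0, 54.9 and 90.1 CPM in LV, and WT ran from 139 to 246 CPM (median 177) and from 174 to 348 CPM (median 221). The groups were again apart, with log2 changes of -1.62 (SE 0.22, adjusted p = 3.85e-05) and -1.94 (SE 0.28, adjusted p = 6.72e-05). Ppargc1b, the paralogue of Ppargc1a, did not pass by edgeR. Its cKO libraries held 24.2 to 60.1 CPM in RV and 27.8 to 43.9 CPM in LV, which overlapped the WT ranges of 36.9 to 95.2 and 36.8 to 84.3. Its log2 change was -0.47 in RV (95% interval -1.08 to 0.14, adjusted p = 0.209) and -0.49 in LV (-0.94 to -0.04, adjusted p = 0.0671). By limma on log2(TPM + 1) it was called lower in RV (-0.94, adjusted p = 0.0103). With all 5 groups in the fit it was called lower in LV (-0.48, adjusted p = 0.036).

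The 3 estrogen-related receptors fell by unequal amounts. Esrrg, the isoform needed for oxidative metabolism in the postnatal heart, held 20.9, 26.4, 30.4 and 28.5 CPM in cKO RV and 19.3, 31.1, 29.5 and 42.2 CPM in cKO LV. WT ran from 69.6 to 95.2 CPM in RV (median 84.5) and from 111 to 161 CPM in LV (median 140), so that the groups stood far apart. It was 3.15-fold lower in RV (log2 -1.66, SE 0.13, adjusted p = 5.75e-07) and 4.6-fold lower in LV (log2 -2.20, SE 0.18, adjusted p = 1.17e-06). The difference between these changes, RV minus LV, was 0.51 (SE 0.21, adjusted p = 0.324), and 0.54 with the animal as a block (adjusted p = 0.0475). None of the other 9 genes passed this test in either fit, where 0.0272% of all genes did without the block. Esrrb, better known from stem cells and the retina, held 5.98, 10.3, 15.2 and 11.2 CPM in cKO RV and 7.71, 12.4, 12.2 and 14.9 CPM in cKO LV. All lay below the WT ranges of 19.1 to 40.5 (median 27.1) and 33.2 to 55.1 CPM (median 36.5), with log2 changes of -1.43 (SE 0.24, adjusted p = 0.000263) and -1.72 (SE 0.19, adjusted p = 7.7e-06).

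Esrra fell least of the receptors called. Its cKO libraries held 32.1, 44.6, 65.1 and 32.2 CPM in RV and 25.4, 46.0, 37.4 and 43.2 CPM in LV. WT ran from 50.4 to 73.0 CPM (median 60.8) and from 42.2 to 73.9 CPM (median 46.8), so the groups overlapped. The log2 change was -0.47 in RV (SE 0.17, adjusted p = 0.0366) and -0.48 in LV (SE 0.18, adjusted p = 0.0388), and the call depended on single libraries. In RV it was lost without cKO_RV_2006 (adjusted p = 0.136), cKO_RV_2052 (0.0656) or cKO_RV_3217 (0.135), and in LV without cKO_LV_2006 (0.133) or cKO_LV_3213 (0.0724).

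Among the PPARs, Ppara fell and the others did not pass. Ppara, the isoform that dominates in cardiomyocytes and drives fatty acid oxidation, held 11.4, 21.8, 20.3 and 12.7 CPM in cKO RV and 8.64, 17.3, 14.1 and 18.7 CPM in cKO LV. WT ran from 32.7 to 85.5 CPM in RV (median 59.7) and from 56.6 to 76.0 CPM in LV (median 66.6), clear of every cKO library. It was 3.39-fold lower in RV (log2 -1.76, SE 0.26, adjusted p = 9.2e-05) and 4.59-fold lower in LV (log2 -2.20, SE 0.18, adjusted p = 1.06e-06). Ppard, which is expressed widely and also acts on fatty acid oxidation genes, held 20.2, 26.3, 29.1 and 27.6 CPM in cKO RV and 35.6, 36.0, 15.6 and 19.0 CPM in cKO LV, against 15.03 to 26.4 and 14.6 to 31.7 CPM in WT. Pparg, the adipocyte isoform, held 24.0, 17.4, 6.94 and 17.7 CPM and 25.6, 22.4, 16.6 and 16.6 CPM, against 10.3 to 18.7 and 11.3 to 22.5 CPM. Both overlapped WT in each ventricle. Their log2 changes were 0.30 (95% interval -0.04 to 0.65) and 0.13 (-0.37 to 0.64) for Ppard and 0.24 (-0.27 to 0.75) and 0.23 (-0.17 to 0.63) for Pparg, with adjusted p from 0.151 to 0.675. Without cKO_RV_3213, Pparg was called higher in RV (log2 0.49, adjusted p = 0.0398). Markers of adipocytes were too low to be tested in any comparison between cKO and WT.

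Tfam fell more in LV than in RV by its point estimates, but the difference did not pass (RV minus LV 0.50, SE 0.23, adjusted p = 0.378). Its cKO libraries held 14.4, 15.8, 17.6 and 18.6 CPM in RV, where WT ran from 16.8 to 36.5 CPM (median 26.7) and 2 cKO libraries lay inside that range. In LV they held 13.7, 12.7, 24.6 and 16.1 CPM, all below the WT range of 31.0 to 42.5 CPM. The gene was 1.51-fold lower in RV (log2 -0.60, SE 0.17, adjusted p = 0.0112) and 2.19-fold lower in LV (log2 -1.13, SE 0.17, adjusted p = 7.67e-05). By limma on log2(TPM + 1) the RV call was lost (adjusted p = 0.0538). Of 18 nuclear genes that replicate, transcribe and maintain mitochondrial DNA, 8 fell and none rose in RV, and 8 fell and 2 rose in LV, with medians of -0.34 and -0.40. Those that fell in both included the transcription factor Tfb2m (log2 -1.10 in RV and -1.82 in LV), the elongation factor Tefm (-0.97 and -1.58), the exonuclease Mgme1 (-0.82 and -0.74) and the RNA stability factor Lrpprc (-1.17 and -1.46). Polg2 (0.94) and Primpol (0.81) rose in LV. The share of all counts from the 37 mitochondrially encoded genes ran from 22.9% to 25.2% in cKO RV against 23.7% to 34.4% in WT RV, and from 25.1% to 34.4% in cKO LV against 27.7% to 40.2% in WT LV, so the groups overlapped in both ventricles.

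Cell markers moved with these changes. Of 10 cardiomyocyte markers 8 fell in cKO RV and 10 in LV (median log2 -1.09 and -1.25), and their sum ran from 38382 to 99333 CPM in cKO RV against 107484 to 155649 in WT, and from 36989 to 82830 in cKO LV against 148750 to 175064. Of 7 fibroblast markers 5 and 4 rose, with sums of 6584 to 13143 CPM in cKO RV against 846 to 1522 in WT, and of 8 macrophage markers all rose in both ventricles. The summed cardiomyocyte markers were 1.94-fold lower in RV and 2.3-fold lower in LV. Per 1000 CPM of these markers, Ppargc1a was 1.58-fold lower in RV and 1.53-fold in LV, Perm1 1.56-fold and 1.69-fold, Esrrg 1.51-fold and 1.93-fold, Ppara 1.7-fold and 1.95-fold, and Esrrb 1.38-fold in both, and cKO and WT did not overlap for Perm1 in RV and for Esrrg and Ppara in LV. A gene that fell less than the summed markers comes out higher on this scale by construction. The share of all genes that did so was not computed. On this scale Esrra stood at 0.690 in cKO RV against 0.485 in WT and at 0.565 against 0.326 in LV, with no overlap in either ventricle. Ppard was higher without overlap too (0.434 against 0.167 in RV and 0.459 against 0.149 in LV). In LV the lowest cKO library (0.1936) barely cleared the highest WT library (0.1934). The highest cKO LV library held 0.963 and the median was 0.340. Pparg was higher without overlap in LV (0.346 against 0.107) and with overlap in RV (0.323 against 0.113). Ppargc1b (0.606 against 0.430 in RV and 0.576 against 0.332 in LV) was higher on average with overlapping libraries. So was Tfam (0.286 against 0.202 and 0.259 against 0.228). The part of these markers in the falls was not tested.

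The genes that these regulators control were described through lists. Of 24 targets of the estrogen-related receptors and PGC-1, all 24 fell in both ventricles, with medians of -1.27 in RV and -1.86 in LV. They included Cox6c of cytochrome oxidase (log2 -2.21 and -2.27), Ndufs1 of complex I (-1.44 and -1.96), cytochrome c (Cycs, -1.27 and -2.20) and the mitochondrial superoxide dismutase Sod2 (-1.76 and -2.26). Of 28 PPAR targets, 24 fell and 3 rose in RV, and 23 fell and 3 rose in LV, with medians of -1.43 and -1.88. The fatty acid transporter Cd36 (-1.37 and -1.55), lipoprotein lipase Lpl (-1.86 and -2.47) and the electron carrier dehydrogenase Etfdh (-1.87 and -2.17) were among those that fell. The 3 that rose in both ventricles were Angptl4, an inhibitor of lipoprotein lipase (1.25 and 2.47), the lipid droplet protein Plin2 (1.32 and 1.33) and the uncoupling protein Ucp2 (1.68 and 1.60). These 3 are also expressed outside cardiomyocytes, and the markers of fibroblasts and macrophages given above rose in the same libraries, a part that was not tested. Cpt1a, the liver isoform of carnitine palmitoyltransferase, stood at -0.06 and -0.05 and was not called. Angptl4, Plin2, Cpt1a and, among the other lists, Polg2, Primpol and Rxra were named after their values were seen.

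Partners and parallel factors moved less evenly. Of 23 partners tested of 24, which are receptors, kinases and coregulators that act with the 10 genes, 5 fell and 4 rose in RV and 7 fell and 6 rose in LV (medians -0.14 and -0.16), where 20.3% and 23.0% of all genes fell, so the share of partners that fell in RV is near that of all genes. The retinoid receptor Rxrg, a heterodimer partner of PPARs, fell (-1.56 and -1.95), as did Prkaa2, the muscle isoform of the AMP-activated kinase (-1.53 and -2.05). Rxra, the other heart isoform of the retinoid receptors, stood at 0.02 and -0.34 and did not pass in either ventricle. The PGC-1-related coactivator Pprc1 rose (0.89 and 1.20). Of 16 transcription factors that act on metabolic genes in parallel, 4 fell and 2 rose in RV and 6 fell and 3 rose in LV. Gabpa (-0.68 and -0.79), Thrb (-1.02 and -1.20) and Mef2a (-0.56 and -0.86) fell, and Hif1a rose (0.74 and 0.60). The lists were chosen with earlier results of these data known, so their counts are descriptions.

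**Figure D2:**
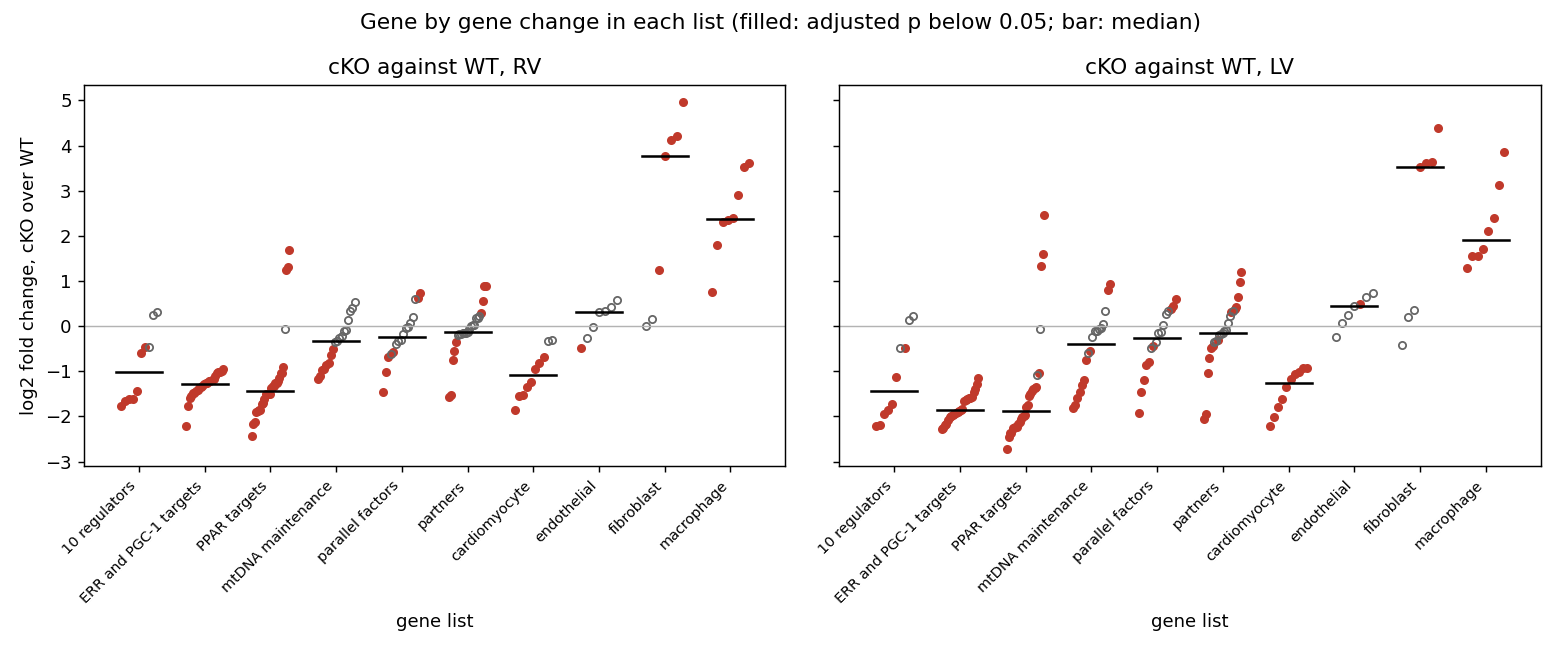
Each point is 1 gene, with its log2 change of cKO over WT on the vertical axis and its list on the horizontal axis, filled where the adjusted p was below 0.05, and bars mark list medians. All 24 targets of the estrogen-related receptors and PGC-1 lie below 0 in both ventricles, and the fibroblast and macrophage markers lie mostly above it.

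Transcript lengths differed as well. The effective length per gene, which the quantification averages over the transcripts it assigns reads to, differed between cKO and WT for 3 of the 10 genes in RV and 1 in LV (exact two-sided permutation test over 715 arrangements, adjusted over 20 tests, smallest possible p = 0.0014). Ppargc1a, with 7 annotated coding transcripts of 488 to 6509 bases, averaged 4545 bases in cKO RV against 5664 in WT (exact p = 0.00559, adjusted p = 0.028) and 4331 against 5726.3 in LV (exact p = 0.0014, adjusted p = 0.00932). The cKO libraries held 4049, 3612, 5421 and 5098 bases in RV and 3156, 4249, 5138 and 4781 in LV, so the animals were unequal. Ppara averaged 2332 against 3376 bases in RV (exact p = 0.0014, adjusted p = 0.00932), with 1 cKO library at 1381 and the other 3 between 2638 and 2664, and 3003 against 3091 in LV. Pparg averaged 1934 against 2206 bases in RV (exact p = 0.0014, adjusted p = 0.00932). For Pparg the WT RV mean was the highest of all groups. Its means were 1978 bases in WT LV, 1955 in cKO LV and 1973 to 2083 in the vector RV groups. A shorter transcript collects fewer fragments, and with the length as an offset the fall of Ppargc1a was -1.26 in RV (adjusted p = 0.000886) and -1.44 in LV, and that of Ppara was -1.19 (adjusted p = 0.00245) and -2.11. With this offset Ppargc1b was called lower in both ventricles (-0.74, adjusted p = 0.0479, and -0.60, adjusted p = 0.0333). The permutation test was not run over all genes, so its counts have no share of all genes beside them. By another measure, Ppara and Pparg in RV and Ppargc1a in LV had lengths that did not overlap between cKO and WT, and Ppargc1a in RV overlapped. With lengths centred on the median of each library, 13.1% of 15313 genes did not overlap in RV and 1.98% in LV, so a length difference in RV was not particular to these genes.

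**Figure D3:**
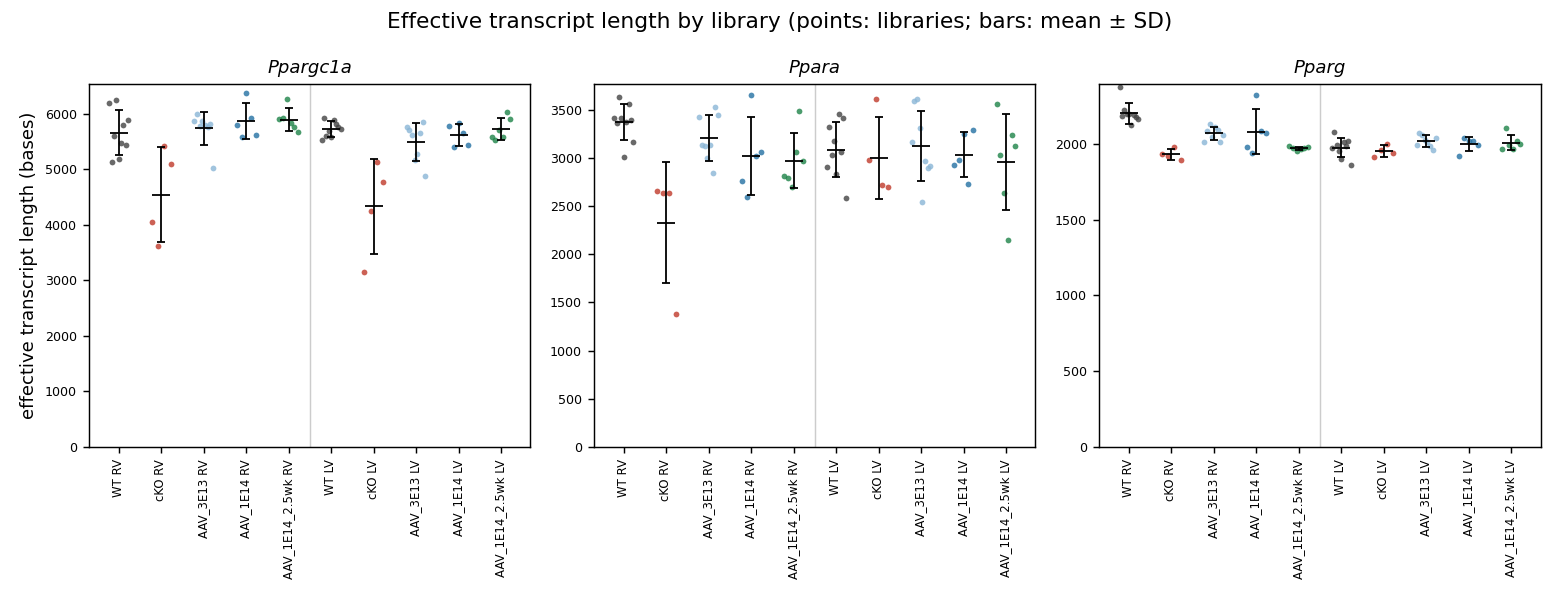
Effective transcript length in bases of Ppargc1a, Ppara and Pparg in every library, with points for libraries and bars for mean ± SD. Ppargc1a lies lower in cKO in both ventricles (4545 and 4331 bases on average, against 5664 and 5726.3 in WT), and Pparg lies lower in cKO RV than in WT RV (1934 against 2206 bases). For Pparg the WT RV mean is the highest of all groups.

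Against untreated cKO, the vector groups held more of the same genes. In RV, Ppargc1a, Perm1, Esrrb, Esrrg, Ppara and Tfam were higher in all 3 vector groups, 6 of 10 genes where 19.4%, 24.2% and 22.6% of all genes tested were called higher in AAV_3E13, AAV_1E14 and AAV_1E14_2.5wk. Esrrg rose most in each, by log2 1.91 (SE 0.14, adjusted p = 2.23e-06), 2.40 (SE 0.17, adjusted p = 1.13e-05) and 2.19 (SE 0.13, adjusted p = 1.17e-05). No vector library of these 6 genes overlapped those of cKO in RV, where 23.1%, 40.2% and 33% of 15313 genes did not overlap. Ppard was called lower in AAV_3E13 (-0.59, adjusted p = 0.0152) and in AAV_1E14_2.5wk (-0.45, adjusted p = 0.0362), where 22.7% and 25.2% of all genes were. By limma on log2(TPM + 1) both calls were lost (-0.15, adjusted p = 0.505, and -0.17, adjusted p = 0.488). The second call was also lost with the length offset (adjusted p = 0.0568), without AAV_1E14_2.5wk_RV_5814 (adjusted p = 0.0623) or without cKO_RV_2052, cKO_RV_3213 or cKO_RV_3217 (0.0745 to 0.0941). Without cKO_RV_3213, Pparg was called lower in AAV_3E13 (-0.63, adjusted p = 0.0451) and AAV_1E14 (-1.02, adjusted p = 0.0141). In AAV_1E14_2.5wk it was then called lower too (-0.62, adjusted p = 0.0425). With all 5 groups in the fit, Pparg (-0.80, adjusted p = 0.0151) and Ppard (-0.45, adjusted p = 0.0444) were called lower in AAV_1E14. Esrra was called higher in AAV_1E14 by limma (0.70, adjusted p = 0.0272).

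In LV the vector groups differed in how many genes were called against cKO, and the calls of some genes depended on the processing. AAV_3E13 was higher in 5, Ppargc1a (1.02), Perm1 (1.31), Esrrb (1.11), Esrrg (1.17) and Ppara (1.43), where 8.58% of all genes were. Tfam (0.43, adjusted p = 0.117) and Esrra (0.53, adjusted p = 0.0517) did not pass, but Tfam did without cKO_LV_3213 (0.68, adjusted p = 0.0171) and Esrra without cKO_LV_2052 (adjusted p = 0.0342). Esrra also passed with RLE factors (adjusted p = 0.0489), DESeq2 (0.0211), limma on log2(TPM + 1) (0.0222) and all 5 groups in the fit (0.00866). With all 5 groups Tfam passed too (0.46, adjusted p = 0.0229), and by DESeq2 so did Ppargc1b (0.47, adjusted p = 0.0324). AAV_1E14 was higher in 8, which added Tfam (0.99), Esrra (0.66) and Ppargc1b (0.65), where 17.3% of all genes were. By limma Tfam (1.11, adjusted p = 0.0525) and Esrra (0.76, adjusted p = 0.0535) lost these calls. AAV_1E14_2.5wk was higher in 6, the first 5 and Tfam (0.93), where 17.4% of all genes were, and lower in Pparg (-0.64, adjusted p = 0.0456), where 15.9% were. The Pparg call was lost without cKO_LV_2006 (adjusted p = 0.136) or cKO_LV_2052 (0.0963), without the low-count filter (0.0664) and by limma (0.113). In this group Esrra was called higher with the length offset (0.65, adjusted p = 0.0408), by limma (0.78, adjusted p = 0.0494) and with all 5 groups in the fit (0.44, adjusted p = 0.0313). Ppargc1b was called higher by DESeq2 (0.58, adjusted p = 0.0342) and with all 5 groups (0.58, adjusted p = 0.0209). Of the 24 targets of the estrogen-related receptors and PGC-1, between 18 and 24 were higher than in cKO in the 6 comparisons, and none was lower. Cardiomyocyte markers were higher by the same comparisons in 4 of 10 (AAV_3E13 LV) to 9 of 10, and macrophage markers were lower in 7 or 8 of 8. The part of these markers in the result was not tested, and the difference in collection time applies to all of these comparisons.

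Against WT, which shares its collection time, AAV_3E13 differed in 6 of the 10 genes in LV and in 1 in RV. In RV the AAV_3E13 levels of Ppargc1a (199 to 368 CPM, median 316), Perm1 (133 to 237, median 176), Esrrb, Ppara and Tfam overlapped WT, and Esrra alone was called (log2 -0.43, SE 0.11, adjusted p = 0.0108), where 10% of all genes were lower. Esrrg was close to the threshold on the other side (0.24, SE 0.09, adjusted p = 0.0503). The 6 genes in LV were all lower than WT, where 19.2% of all genes were. Ppargc1a ran from 137 to 265 CPM (median 179) against a WT median of 338 and fell by 0.80 on the log2 scale (SE 0.13, adjusted p = 0.000146). Esrrg ran from 55.7 to 91.6 CPM (median 67.9), all below the WT range, and fell by 0.98 (SE 0.10, adjusted p = 1.66e-06). Ppara (30.5 to 53.6 CPM, log2 -0.72, adjusted p = 4.17e-05), Tfam (19.4 to 26.6 CPM, log2 -0.65, adjusted p = 1.59e-05) and Esrrb (21.3 to 31.6 CPM, log2 -0.57, adjusted p = 0.000582) likewise lay below every WT LV library, and Perm1 (127 to 207 CPM, log2 -0.58, adjusted p = 0.00154) overlapped WT. Without overlap were 4 of the 10 genes, where 6.37% of 15313 genes were. By the same LV comparison 23 of 24 targets of the estrogen-related receptors and PGC-1 (median -0.78) and 21 of 28 PPAR targets (median -0.79) were lower, and so were 9 of 10 cardiomyocyte markers (median -0.54), while fibroblast (6 of 7), macrophage (8 of 8) and endothelial markers (7 of 7) were higher. Their part in the result was not tested.

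The AAV_1E14 group stood above WT in RV and showed no call in LV. In RV, Ppargc1a held 405, 352, 355, 438 and 375 CPM, above every WT RV library (highest 322), a log2 difference of 0.46 (SE 0.09, adjusted p = 0.0021). Perm1 held 254, 254, 334, 274 and 259.6 CPM (WT highest 246, log2 0.49, SE 0.13, adjusted p = 0.00951), and Esrrg held 166, 132, 123, 155 and 113 CPM (WT highest 95.2, log2 0.69, SE 0.10, adjusted p = 0.000378). These 3 genes did not overlap WT, as 8.66% of 15313 genes did not. Esrrb (0.52, adjusted p = 0.0177), Ppara (0.56, adjusted p = 0.026) and Tfam (0.53, adjusted p = 0.0115) were also higher, which made 6 of 10 where 15.4% of all genes were, and Pparg was lower (-0.60, adjusted p = 0.0344) where 14.1% were. Esrrb, Ppara and Pparg lost their calls without AAV_1E14_RV_5726 (adjusted p = 0.0506, 0.0719 and 0.0826), Ppara without AAV_1E14_RV_5822 (0.0582), and Pparg without AAV_1E14_RV_2034 (0.0969) or WT_RV_5819 (0.0594). By limma on log2(TPM + 1), Esrrg (0.44, adjusted p = 0.0522), Esrrb (0.51, adjusted p = 0.0505), Tfam (0.35, adjusted p = 0.472) and Pparg (-0.48, adjusted p = 0.183) lost theirs. Endothelial markers were lower in all 7 cases (median -0.49, sum 1105 to 1435 CPM against 1384 to 2016 in WT RV) and cardiomyocyte markers higher in 8 of 10 (median 0.37), and their part in the result was not tested. In LV no member was called and only 1 gene of 13327 was (0.00750% in either direction, 610 at an unadjusted p below 0.05), and log2 differences of the 10 ran from -0.28 for Esrrg (95% interval -0.51 to -0.04) to 0.21 for Esrra (-0.06 to 0.47).

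The group dosed after tamoxifen had 3 calls against WT in RV and none in LV. In RV, AAV_1E14_2.5wk was higher in Esrrg (104 to 135 CPM, median 119, log2 0.50, SE 0.08, adjusted p = 0.000266), all of whose libraries lay above WT, and in Tfam (27.4 to 44.8 CPM, log2 0.50, SE 0.14, adjusted p = 0.0121), where 17.8% of all genes were higher. Esrra was lower (32.8 to 55.2 CPM, median 39.2, against a WT median of 60.8, log2 -0.58, SE 0.11, adjusted p = 0.000835), where 18.5% of all genes were. In LV none of the 10 passed, where 1.49% of all genes did in either direction, and Ppargc1a came nearest (186 to 289 CPM, median 211, log2 -0.53, 95% interval -0.83 to -0.23, adjusted p = 0.0661). DESeq2 called Ppargc1a (adjusted p = 0.0124) and Esrrg (-0.33, adjusted p = 0.045) lower in this LV comparison. Endothelial markers were lower in all 7 cases in RV (median -0.58) and fibroblast markers higher in 6 of 7 (median 1.07), and their part in the result was not tested.

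Effective transcript lengths were also set side by side for these comparisons. Over 15313 genes, 19.1% had lengths that did not overlap between WT RV and AAV_1E14_2.5wk RV, 1.35% between WT RV and AAV_1E14 RV, 0.692% between WT RV and AAV_3E13 RV, and 0.0261% between the LV libraries of WT and either 1E14 group. Between WT RV and all 19 vector RV libraries together the share was 0.137%, and the ranges of all 10 genes overlapped. In AAV_1E14_2.5wk RV taken alone, Perm1 (3907 to 3979 bases against 4059 to 4322 in WT RV) and Pparg (1954 to 1989 against 2125 to 2376) did not overlap. Between cKO RV and the RV of each vector group it ran from 16.1% to 31%. Esrrg averaged 3584 bases in WT RV and 4066 over the vector RV libraries, and Perm1 4231 and 3988. With the length as an offset, the AAV_1E14 RV differences of Ppargc1a (0.38, adjusted p = 0.0187), Perm1 (0.52, adjusted p = 0.00854), Esrrg (0.39, adjusted p = 0.0399), Esrrb (0.47, adjusted p = 0.0337) and Ppara (0.69, adjusted p = 0.0134) held their calls, and those of Tfam (0.24, adjusted p = 0.528) and Pparg (-0.53, adjusted p = 0.0885) did not. In AAV_1E14_2.5wk RV, Esrra kept its call (-0.45, adjusted p = 0.0103), Esrrg (0.24, adjusted p = 0.0918) and Tfam (0.29, adjusted p = 0.453) lost theirs, and Ppargc1b gained one (-0.49, adjusted p = 0.038). In AAV_3E13 LV all 6 calls held, with Esrrg at -0.91 (adjusted p = 8.94e-07).

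**Figure D4:**
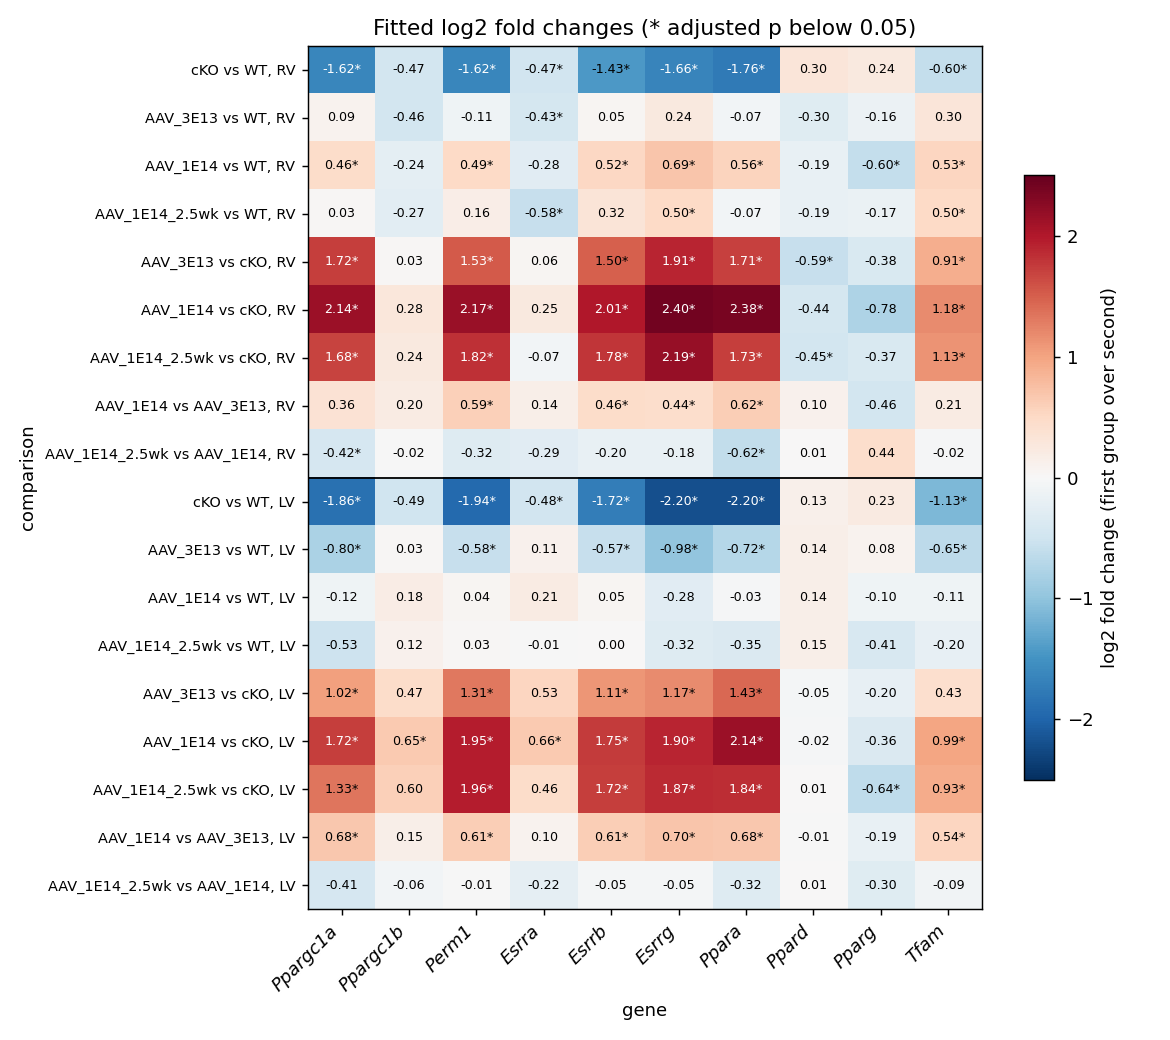
Colour and number give the fitted log2 change of the first group over the second for each gene and comparison, with RV comparisons above the black line and LV comparisons below it, and an asterisk where the adjusted p was below 0.05. Both rows of cKO against WT carry 7 asterisks, all on blue (lower), the row of AAV_3E13 against WT carries 6 in LV (Esrrg -0.98) and 1 in RV, and that of AAV_1E14 against WT carries 7 in RV (Esrrg 0.69) and none in LV.

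The higher dose was set against the lower one within vector-treated animals of the same collection time. In LV, AAV_1E14 exceeded AAV_3E13 in 6 of the 10 genes, where 10.8% of all genes were higher. Ppargc1a held 325, 293, 279, 319 and 300.2 CPM against 137 to 265 CPM at the lower dose, with no overlap, a log2 difference of 0.68 (SE 0.12, adjusted p = 0.00188). Ppara held 68.0, 59.7, 57.8, 72.4 and 67.3 CPM against 30.5 to 53.6, again without overlap (0.68, SE 0.13, adjusted p = 0.00284). Esrrg (0.70), Perm1 (0.61), Esrrb (0.61) and Tfam (0.54) were higher with overlapping libraries, and adjusted p ran from 0.00214 to 0.00934. The Tfam call was lost with the length offset (0.70, adjusted p = 0.0748) and by limma (0.55, adjusted p = 0.217). In RV 4 genes were higher, where 5.02% of all genes were. They were Ppara (79.5, 71.9, 99.8, 89.5 and 82.5 CPM against 44.0 to 61.9, log2 0.62, adjusted p = 0.00389), Perm1 (0.59, adjusted p = 0.0117), Esrrb (0.46, adjusted p = 0.0213) and Esrrg (0.44, adjusted p = 0.0188). The Esrrb call was lost without AAV_1E14_RV_5726 (adjusted p = 0.0641), AAV_1E14_RV_5822 (0.0524) or AAV_1E14_RV_5825 (0.0556), and the Esrrg call without AAV_1E14_RV_2034 (0.0636) or AAV_1E14_RV_5822 (0.0595) and with the length offset (0.34, adjusted p = 0.101). By limma neither Esrrb (0.24, adjusted p = 0.253) nor Esrrg (0.22, adjusted p = 0.375) was called in RV. Ppargc1b, Esrra, Ppard and Pparg did not pass in either ventricle. Of the 24 targets of the estrogen-related receptors and PGC-1, 18 in RV and 21 in LV were higher at the higher dose, of 28 PPAR targets 16 and 18, of 10 cardiomyocyte markers 4 and 8, and fibroblast markers were lower in 6 of 7 in each ventricle, whose part in the result was not tested.

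Between the groups given 1E14 before and after tamoxifen, 2 genes differed in RV. AAV_1E14_2.5wk RV held Ppargc1a at 233 to 337 CPM (median 286), all below the 352 CPM of the lowest AAV_1E14 library (log2 -0.42, SE 0.10, adjusted p = 0.0187), and Ppara at 41.4 to 76.0 CPM (median 51.7, log2 -0.62, SE 0.13, adjusted p = 0.0141), where 3.95% of all genes were lower. The Ppargc1a call was lost without AAV_1E14_RV_5822 (adjusted p = 0.0509). In the same comparison 12 of 24 targets of the estrogen-related receptors and PGC-1 and 8 of 28 PPAR targets were lower, and fibroblast markers were higher in 4 of 7. In LV none of the 10 genes and no gene at all was called by edgeR (964 at an unadjusted p below 0.05, and 57 called by DESeq2), and the estimates of the 10 ran from -0.41 for Ppargc1a to 0.01.

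Each animal gave both ventricles, which allowed the RV to be set against the LV. In WT, 3 of the 10 genes were lower in RV, where 15.4% of all genes were. Esrrg was lower in RV in 9 of 9 animals, with log2 ratios from -1.07 to -0.56 and no overlap between the ventricles (log2 -0.72, SE 0.09, adjusted p = 1.55e-05). Tfam was lower in 8 of 9 animals (-0.52, SE 0.11, adjusted p = 0.00183) and Esrrb in 6 of 9 (-0.41, SE 0.13, adjusted p = 0.0228). Without the animal of WT_RV_5819, the library with atrial markers, the Esrrb call was lost (-0.33, adjusted p = 0.0699) and Esrra was called higher in RV (0.30, adjusted p = 0.0241). With the length offset Esrrg kept its call (-0.42, adjusted p = 0.00348), as did Esrrb (-0.47, adjusted p = 0.00955), and Tfam did not (-0.44, adjusted p = 0.147). Perm1 gained a call with this offset (-0.35, adjusted p = 0.0431). Tfam also lost its call by limma (-0.46, adjusted p = 0.21). Cardiomyocyte markers were lower in WT RV for 9 of 10 (median -0.36) and endothelial markers higher for 5 of 7, and their part in the result was not tested. In cKO none of the 10 genes passed, where 0.00726% of all genes did.

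In vector-treated animals the order of the ventricles was another for some genes. In AAV_3E13, Ppargc1a was higher in RV in 8 of 8 animals (log2 ratios 0.18 to 1.01, fitted 0.63, adjusted p = 0.00495), and Esrrg in 7 of 8 (0.51, adjusted p = 0.00333). Ppara (0.42, adjusted p = 0.0193) and Tfam (0.44, adjusted p = 0.00463) were also higher in RV, 4 of 10 genes where 10.8% of all genes were, and Ppard (-0.61, adjusted p = 0.00963) and Pparg (-0.51, adjusted p = 0.0497) were lower, where 9.49% were. The Ppara call was lost with the length offset (0.36, adjusted p = 0.148), and the Pparg call with RLE factors (adjusted p = 0.0535) or without the low-count filter (0.0814). In the same animals endothelial markers were lower in RV for 6 of 7 (median -0.50) and cardiomyocyte markers higher for 3 of 10 (median 0.20), and their part in the result was not tested. With the animal as a block Ppargc1b was called lower in RV too (-0.47, adjusted p = 0.0142). In AAV_1E14 no gene of the 10 passed without the block, where 2.95% of all genes did, and with it Ppargc1a (0.32, adjusted p = 0.0227, higher in RV in 5 of 5 animals) and Pparg (-0.82, adjusted p = 0.037, lower in 5 of 5) did. In AAV_1E14_2.5wk none passed, where 0.0226% of all genes did, although Esrra was lower in RV in 6 of 6 animals and Esrrg higher in 5 of 6. These counts include the animal of AAV_1E14_2.5wk_RV_5814, whose ventricles do not match, so its ratio may not be one within an animal.

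The difference between ventricles in the response relative to WT was tested as an interaction. For AAV_3E13 against WT, 7 of the 10 genes differed, 6 of them relatively higher in RV, where 18.8% of all genes were, and Esrra relatively lower, where 18.1% were. Esrrg differed by log2 1.23 (SE 0.14, adjusted p = 1.24e-07), Tfam by 0.96 (SE 0.15, adjusted p = 6.45e-06), Ppargc1a by 0.89 (SE 0.18, adjusted p = 0.000257), Ppara by 0.66 (adjusted p = 0.00685), Esrrb by 0.63 (adjusted p = 0.00441), Perm1 by 0.48 (adjusted p = 0.0419) and Esrra by -0.52 (adjusted p = 0.013). All 7 kept their calls with the length offset. Cardiomyocyte markers were relatively higher in RV for 7 of 10 (median 0.61) and endothelial markers relatively lower for 7 of 7 (median -0.71), and their part in the result was not tested. Perm1 lost its call with the animal as a block (0.46, adjusted p = 0.0571), where Ppargc1b gained one (-0.49, adjusted p = 0.0293), and without the animal of WT_RV_5819 (0.37, adjusted p = 0.108). For AAV_1E14, Esrrg (0.97, adjusted p = 0.000205), Ppargc1a (0.58, adjusted p = 0.013), Tfam (0.64, adjusted p = 0.0153) and Ppara (0.59, adjusted p = 0.0449) were relatively higher in RV, where 11.4% of all genes were. The Ppara call was lost without any 1 of the 5 AAV_1E14 animals or the animal of WT_RV_5819 (adjusted p from 0.06 to 0.146), and Esrra was called with the block (-0.52, adjusted p = 0.0246) and without the animal of WT_RV_5819 (-0.57, adjusted p = 0.0181). For AAV_1E14_2.5wk, Esrrg (0.84, adjusted p = 0.000164), Tfam (0.72, adjusted p = 0.00454) and Ppargc1a (0.58, adjusted p = 0.0261) were relatively higher, where 10.7% of all genes were, and Esrra relatively lower (-0.55, adjusted p = 0.0263), where 7.72% were. With the length offset only Esrrg (0.57, adjusted p = 0.0218) and Ppara (0.66, adjusted p = 0.0394) remained for AAV_1E14, and only Esrrg (0.53, adjusted p = 0.00906) for AAV_1E14_2.5wk. Cardiomyocyte markers were relatively higher for 5 and lower for 1 of 10 in AAV_1E14 and higher for 3 in AAV_1E14_2.5wk, and endothelial markers relatively lower for 5 and 3 of 7, a part that was not tested either. The 3 contrasts share the WT libraries, so the ratios of each group are plotted side by side.

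**Figure D5:**
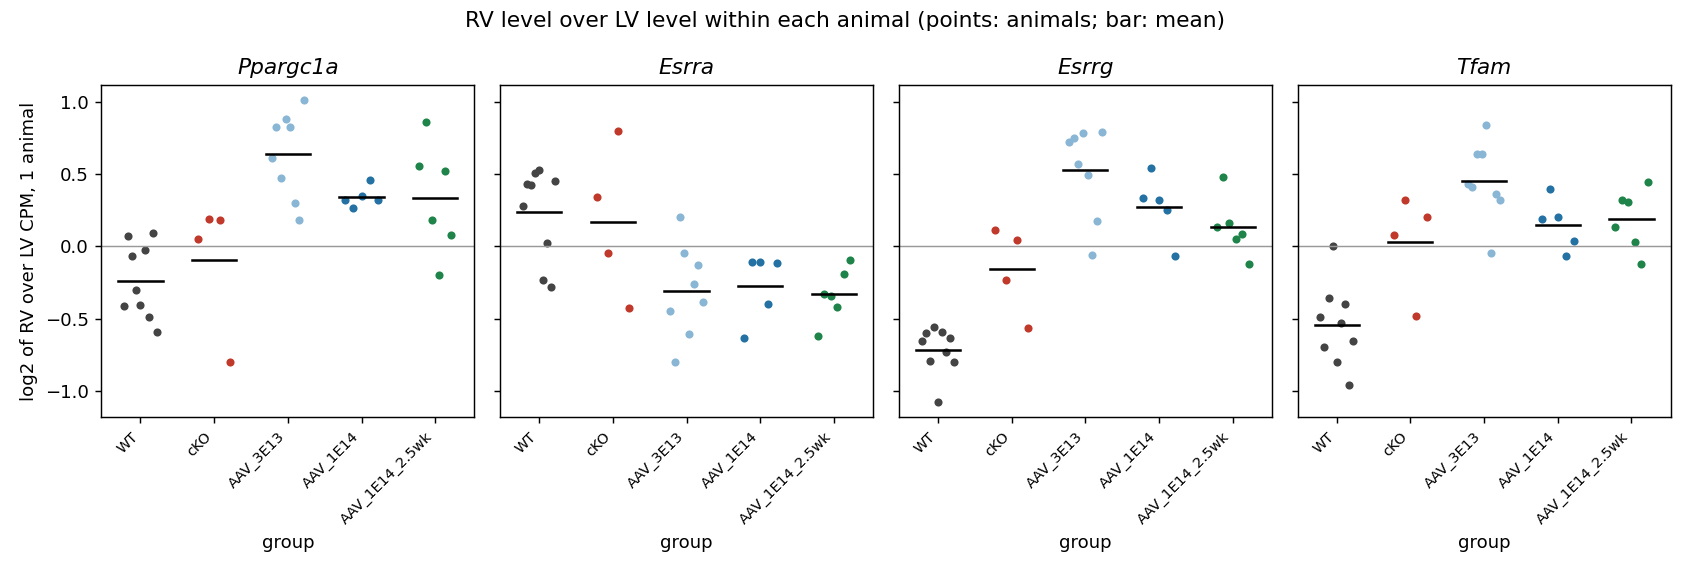
Each point is 1 animal, with the log2 ratio of its RV level to its LV level in CPM on the vertical axis and its group on the horizontal axis, and bars mark means. All 9 WT animals lie below 0 for Esrrg (-1.07 to -0.56), and 7 of 8 AAV_3E13 animals lie above it. The points of AAV_1E14_2.5wk include the animal of AAV_1E14_2.5wk_RV_5814, whose ventricles do not match.

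The genes whose pattern lay nearest to each regulator were found from log2 group means over the 10 combinations of group and ventricle, among 15312 genes, with the root mean square difference after centring as the measure. Ndufs6 of complex I (0.055), the citric acid cycle enzyme Fh1 (0.081) and Rxrg (0.085) were nearest to Ppargc1a. Oxct1, which uses ketone bodies (0.062), Phyh (0.072) and Prkaa2 (0.075) were nearest to Esrrg, and Hadhb of the mitochondrial trifunctional protein (0.069) to Ppara. Timm21 (0.076) and the cardiac transcription factor Tbx5 (0.079) were nearest to Perm1, Egln1 (0.068) to Esrrb, Nedd1 (0.044) to Tfam and Cd300lg (0.060) to Esrra. Among the regulators themselves, Perm1 lay near Esrrb (0.12), Esrrg (0.15) and Ppara (0.15), and Ppargc1a near Ppara (0.14). Of the estrogen-related receptors, Esrrb lay near Esrrg (0.17), whereas Esrra lay near Ppargc1b (0.13) and further from Esrrg (0.73) and Esrrb (0.59). The measure is not scaled, so it also reflects the size of the changes of a gene, and the spread was 0.23 for Esrra and 0.82 for Esrrg. The points share libraries, and all of these are descriptions with no test.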

How the data were processed

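RNA of both ventricles of 32 mice was sequenced, and animals were grouped by the labels' genotype, vector and dose. The authors trimmed the reads, quantified them against GRCm39 transcripts with Salmon 1.8.0 and deposited estimated counts per gene, TPM and mean effective transcript lengths in bases. The labels name polyA RNA, whereas the protocol names a kit that depletes ribosomal RNA, and a change of RNA selection would change which transcripts are seen.

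The deposited estimated counts were rounded to whole numbers, and the 37 mitochondrially encoded genes were removed before library sizes were taken, as in the study. The study also extracted protein-coding genes, which was not done here. Genes were filtered by filterByExpr (minimum count 10, minimum total 15) and scaled by TMM, and each pair of groups was tested alone, within a ventricle, with edgeR 4.0.16 (quasi-likelihood test, R 4.3.3). Adjustment was by Benjamini-Hochberg over all genes tested, with a threshold of 0.05, and intervals are at 95%. The study itself tested log2(TPM + 1) with unequal variances, so limma 3.58.1 on the deposited TPM with a pseudocount of 1 was an alternative. The others were RLE factors, no filter, mitochondrial genes kept, DESeq2 1.42.0, the effective length as an offset, all 5 groups in the fit, the animal as a block, and each animal left out where a group held at most 5. Leaving out the library or animal of WT_RV_5819 or AAV_1E14_2.5wk_RV_5814 was added after seeing the data. Differences between ventricles, and between ventricles in a group's response, were fitted in 1 model over both ventricles. CPM values in the text were scaled by TMM over all libraries.

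The 2 ventricles of an animal carry its number in the labels, so they pair, although those of the animal of AAV_1E14_2.5wk_RV_5814 do not match. Their deviations from the group means correlated with a median of 0.113 over 32 animals and 15313 genes (over 0.1 in 18), against -0.0161 between different animals. Animals are the replicates, and litter or batch is not given in the sources used here.

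The 10 genes and 11 lists (markers, targets, partners) were chosen with earlier results of these data known. For some of the 10 genes, the text names up to 3 of the genes nearest in pattern and leaves out the others. Beside these, it names for each list up to 4 genes that passed in cKO against WT in both ventricles with the smallest p-values, and Pkp2 and sex-linked genes. A gene that this rule names among the partners is not reported here. On simulated data for cKO against WT in RV (14150 genes), the test recovered 57% of genes changed by 1 on the log2 scale and 88% of those changed by 2, and in LV (13846 genes) 43% and 86%. Libraries held 7.96e+06 to 1.46e+07 counts. Promoters were read from GRCm39 with GENCODE vM39 start sites.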

Additional observations from a re-analysis of the deposited data

Results flagged for a closer look

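In 100 sets of libraries checked for a library far from the rest of its group, 2 were found, and chance gives about 1 in 20. Perm1 stood at 334 CPM in AAV_1E14_RV_5726, against 254 to 274 CPM in the other 4. Esrrb stood at 55.1 CPM in WT_LV_5819, against 33.2 to 44.1 CPM in the other 8.

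The response relative to WT differed between ventricles by the interaction test for 15 combinations of gene and group, given as the RV minus LV difference in log2 change. In AAV_3E13 they were Esrrg (1.23), Tfam (0.96), Ppargc1a (0.89), Ppara (0.66), Esrrb (0.63), Perm1 (0.48) and Esrra (-0.52). In AAV_1E14 they were Esrrg (0.97), Tfam (0.64), Ppara (0.59) and Ppargc1a (0.58). In AAV_1E14_2.5wk they were Esrrg (0.84), Tfam (0.72), Ppargc1a (0.58) and Esrra (-0.55). All 3 sets use the same WT animals.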

How the results depend on the processing

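Of 2930 refitted log2 changes of the 10 genes, 2800 kept their direction and side of the threshold, 85 lost a call, 45 gained one and none turned. Of 303 counts of called genes, 282 stayed within 1.5 times the reported count. By limma on log2(TPM + 1), the count became 0 instead of 1 for AAV_3E13 against WT in RV, 3 instead of 7 for AAV_1E14 against WT in RV, 2 instead of 4 for AAV_1E14 against AAV_3E13 in RV, 1 instead of 2 for AAV_1E14_2.5wk against AAV_1E14 in RV, 2 instead of 6 for RV against LV in AAV_3E13, and 1 instead of 4 for the RV minus LV response of AAV_1E14 and of AAV_1E14_2.5wk. RLE factors and DESeq2 each gave 2 for AAV_3E13 against WT in RV, and DESeq2 gave 2 instead of 0 for AAV_1E14_2.5wk against WT in LV and 3 instead of 0 for RV against LV in AAV_1E14. With all 5 groups in the fit, 1 gene was called for AAV_1E14_2.5wk against AAV_1E14 in RV. The length offset left 2 for the RV minus LV response of AAV_1E14 and 1 for that of AAV_1E14_2.5wk. With the animal as a block (the pairing of ventricles), 2 genes instead of 0 were called for RV against LV in AAV_1E14 and 1 instead of 0 for the RV minus LV response of cKO, and beside the gains and losses named in the report no other call of the 10 genes changed. The cause of these changes was not tested.

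With each animal dropped in turn, 6 to 8 genes were called for cKO against WT in RV and 6 to 7 in LV, 4 to 8 for AAV_1E14 against WT in RV (4 without AAV_1E14_RV_5726), 2 to 4 for AAV_1E14 against AAV_3E13 in RV (2 without AAV_1E14_RV_5822), 1 to 2 for AAV_1E14_2.5wk against AAV_1E14 in RV (1 without AAV_1E14_RV_5822) and 0 to 1 for RV against LV in AAV_1E14 (1, Ppargc1b, without the animal of AAV_1E14_RV_2043). The number of genes whose effective length differed between cKO and WT was 2 to 3 in RV and 1 to 2 in LV.

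The cKO group held 4 animals, and a gene that missed the threshold, such as Ppargc1b, is not shown to be unchanged. The cKO hearts were collected at 4 weeks and all others at 51, and bulk counts do not separate cell types.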
